A study of Rattus norvegicus with 78 samples.

Results

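Solute carrier genes code for membrane proteins that move ions, amino acids, transmitters, sugars, metals, nucleosides and lipids across the plasma membrane and the membranes of organelles. The rule took every probe set whose only gene symbol begins with Slc, left out Slc2a1, Slc4a1 and Slc11a2, and kept a probe set when its signal lay above the 40th percentile of its array (the filter level) on at least 9 arrays. Of 237 such genes on the array, with 295 probe sets, 153 were kept. Each is represented by its brightest probe set, and 26 of them had more than 1 kept probe set. The 153 members are set among 10371 tested probe sets from 7489 genes. No measured difference between groups entered the rule. At its edge, Slc8a3 passed the level on exactly 9 arrays, and 1 of the 84 genes left out reached 8.

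The tissue was left hippocampus, dorsal portion, from 78 male F344 rats, and RNA of each animal was measured on 1 Affymetrix RAE-230A array. Young rats were 4 to 6 months and aged rats 24 to 26 months old. Home-cage rats that were never trained formed 2 groups of 10, NT-Y for young and NT-A for aged animals. The rest learned the Morris water maze and were sampled either on its last day, day 5 (young 5T-Y, unimpaired aged 5T-AU and impaired aged 5T-AI, with 10 rats in each), or 21 days afterwards (young 21PT-Y, n = 9, unimpaired aged 21PT-AU, n = 10, and impaired aged 21PT-AI, n = 9). The aged trained rats had been divided by maze performance into unimpaired (AU) and impaired (AI), so that these groups are phenotypes rather than treatments. The home-cage aged rats were not divided in this way. Values are log2(signal + 1), differences carry the standard error (SE) of a limma fit over all 78 arrays, and adjusted p-values are from limma with Benjamini-Hochberg adjustment over the 10371 probe sets. A member is called changed at an adjusted p under 0.05.

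In hippocampus, solute carriers clear glutamate and GABA from the synapse, load transmitters into vesicles, set the chloride and proton gradients on which inhibition depends, and carry glucose and lactate between blood, glia and neurons. Many work by exchange or by coupling to the sodium gradient that the Na,K-ATPase maintains, and the mitochondrial carriers (the Slc25 family) link the cytosol to the respiratory chain. Because a piece of tissue was measured, fewer cells of a type and less RNA in each cell cannot be told apart.

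By substrate, the members were 9 of 18 transmitter carriers on the array, 19 of 33 amino acid and peptide carriers, 14 of 23 sugar and carboxylate carriers, and 23 of 36 carriers of inorganic ions and pH. They also took in 18 of 23 metal carriers, 27 of 30 mitochondrial carriers, 21 of 30 carriers of nucleosides, nucleotide sugars and vitamins, and 20 of 42 carriers of organic ions, lipids and other solutes. Slc4a1ap and Slc7a6os carry the prefix but are named after a neighbouring gene or a binding partner and are not transporters. Of the members 114 lay above the filter level on all 78 arrays and 16 on fewer than 39 of them. Among the genes left out were Slc6a4 and Slc6a2, the plasma membrane transporters of serotonin and noradrenaline, and Slc18a3 and Slc5a7, which serve cholinergic endings. The cell bodies of those neurons lie outside the hippocampus. The transmitter carriers Slc6a11 and Slc6a13 were left out too, while the monoamine carriers Slc18a2 and Slc6a3 were kept. Why a gene fell below the filter was not tested. The within-group SD of the members had a median of 0.19 on the log2 scale, against 0.18 over all tested probe sets.

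The arrays differed in ways that touch these results. 5T-AI replicate 4 stood apart: its mean microglia marker level was 10.91, against 8.42 to 9.36 on the other arrays, and its meninges and fibroblast marker level was 10.24 against 7.87 to 8.87. Its excitatory neuron marker level was 10.33 and 10.65 to 11.03 on the others, above the filter level on every array. These markers had themselves passed the filter, so this does not test the tissue label. Chip lot was balanced, with 3 or 4 arrays of each group in each of 3 lots. Fluidics module was not: module 1 took all 10 arrays of NT-Y, module 2 took 9 of 10 of 5T-Y, and module 4 took 8 of 10 of NT-A. NT-Y and NT-A shared no module, so within untrained rats age and module cannot be told apart. NT-Y also shared no module with 5T-Y or 21PT-Y, so within young rats training and module cannot be told apart. Module 1 took 7 of 10 arrays of 5T-AI, and module 3 took 7 of 10 of 5T-AU. On day 21, module 2 took 7 of 9 arrays of 21PT-AI, module 4 took 7 of 10 of 21PT-AU, and module 3 took 8 of 9 of 21PT-Y. On day 5, module 2 held 2 arrays of 5T-AU and none of 5T-AI. Scanning was spread over 11 days, and no day repeated a group. No label says how the animals relate to each other beyond 1 array per animal.

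Age was the comparison in which members passed the threshold. In the mean of the 3 cohorts (home cage, day 5 and day 21), 14 of 153 members were called, 7 higher (background 5.31%) and 7 lower (background 3.47%) in aged rats, which is 9.15% against 8.78% of all tested probe sets. The share was thus close to the background. The count includes Slc9a3 and Slc25a13, which met the filter through aged arrays, and was 12 without them. The carriers that rose were Slc9a3, Slc44a1, Slc12a2, Slc25a13, Slco2b1, Slc29a3 and Slc3a2. Those that fell were Slc17a6, Slc25a18, Slco1c1, Slc24a3, Slc39a10, Slc35b1 and Slc1a1. Within single cohorts 1 member was called in untrained rats (background 0.781%), 6 on day 5 (background 2.5%) and 4 on day 21 (background 2.84%). The day 5 and day 21 counts also include Slc9a3. With fluidics module as a term, the counts of the single cohorts were 0, 0 and 3, and 11 in the mean of the cohorts. Over the 11 fits of this mean that had no marker level in them, Slc1a1 passed in 8 and Slc29a3 in 9. Slc24a3, Slc35b1, Slc39a10 and Slc3a2 passed in 10, and the other called members in all 11. Of the 14, all had the same sign in each of the 3 chip lots. The lots hold the same arrays from which the 14 were picked, so this is a description and does not test the calls.

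Slc44a1, Slc12a2 and Slc9a3 were the members called in more than 1 cohort in the fit without fluidics module. With module as a term, no member was called in more than 1 cohort. The RefSeq start regions of these 3 genes are shown because no other member was called in more than 1 cohort without that term. Each is 300 bases around the annotated start on build GRCr8, 5′ to 3′ on the gene's strand. Capitals mark GC boxes (GGGCGG on either strand) and the E-box CAGCTG.
Slc44a1, chr5:72858750-72859049, plus strand: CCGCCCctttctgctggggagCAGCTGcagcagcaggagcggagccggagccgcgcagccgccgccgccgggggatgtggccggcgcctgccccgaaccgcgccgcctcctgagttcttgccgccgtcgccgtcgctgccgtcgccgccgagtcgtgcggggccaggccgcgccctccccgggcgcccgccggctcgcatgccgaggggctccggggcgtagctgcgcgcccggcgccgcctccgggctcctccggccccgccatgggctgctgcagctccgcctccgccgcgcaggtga
Slc12a2, chr18:53546083-53546382, plus strand: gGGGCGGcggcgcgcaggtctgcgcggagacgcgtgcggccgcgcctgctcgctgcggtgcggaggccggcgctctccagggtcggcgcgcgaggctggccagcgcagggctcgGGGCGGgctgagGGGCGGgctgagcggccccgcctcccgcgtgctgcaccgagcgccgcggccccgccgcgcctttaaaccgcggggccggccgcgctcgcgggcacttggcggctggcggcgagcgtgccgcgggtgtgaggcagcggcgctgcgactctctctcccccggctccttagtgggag
Slc9a3, chr1:30995953-30996252, minus strand: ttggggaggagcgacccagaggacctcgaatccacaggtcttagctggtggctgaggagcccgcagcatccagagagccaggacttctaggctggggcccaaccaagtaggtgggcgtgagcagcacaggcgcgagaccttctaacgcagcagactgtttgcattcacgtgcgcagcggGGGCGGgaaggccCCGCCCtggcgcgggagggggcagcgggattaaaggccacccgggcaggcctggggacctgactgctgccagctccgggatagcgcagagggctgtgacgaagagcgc
Matches to GGGCGG numbered 1, 3 and 2 in this order, and 33.1% of the 33469 rat promoters of the same length held at least 1. CAGCTG, which reads the same on both strands, occurred once, in Slc44a1, and in 15.1% of all promoters. Searched on both strands, the CCAAT box had no match in the 3 windows and matched 37.5% of all promoters. The TATAAA box had none and matched 14.2%, and the ACAAAG motif of SOX factors had none and matched 18.8%. None of the 5 motifs contains another.

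Slc44a1 codes for choline transporter-like protein 1, which brings in choline for membrane phospholipids. In untrained rats its log2 signal ran from 9.90 to 10.43 with a median of 10.29 in young, and from 10.32 to 10.77 with a median of 10.51 in aged rats. On day 5 the young lay between 10.15 and 10.55 (median 10.33) and the aged between 10.36 and 11.49 (median 10.60). On day 21 the young lay between 10.07 and 10.57 (median 10.31) and the aged between 10.32 and 11.01 (median 10.57). The groups overlapped at their edges in each cohort, yet 48 of 49 aged arrays lay above the mean of the young rats of their cohort. The differences of 0.31 ± 0.083, 0.33 ± 0.072 and 0.29 ± 0.075 (SE) passed in all 3 cohorts (limma, adjusted p = 0.0447, 0.00234 and 0.0145). With fluidics module as a term, neither the untrained nor the day 5 difference passed. In the mean of the cohorts, Slc44a1 rose by 0.31 ± 0.045, a fold of 1.24 (adjusted p = 1.26e-07). This value belongs to the brightest of its 3 probe sets. The other two differed by 0.09 ± 0.040 (adjusted p = 0.156) and 0.12 ± 0.059 (adjusted p = 0.237), and the mean of the 3 probe sets rose by 0.17 (adjusted p = 0.000368).

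Slc12a2, the sodium-potassium-chloride cotransporter NKCC1 that loads chloride into cells, rose by nearly the same amount in each cohort. Young untrained rats ran from 10.75 to 11.22 (median 11.04) and aged untrained rats from 11.03 to 11.46 (median 11.25). On day 5 the ranges were 10.86 to 11.16 (median 11.07) and 11.03 to 11.73 (median 11.26). On day 21 they were 10.78 to 11.22 (median 11.04) and 11.00 to 11.43 (median 11.31). All 10 untrained aged arrays lay above the young mean, as did 17 of 20 on day 5 and 17 of 19 on day 21. The differences were 0.23 ± 0.065 (limma, adjusted p = 0.0742), 0.22 ± 0.056 (adjusted p = 0.0122) and 0.22 ± 0.059 (adjusted p = 0.0165), and 0.22 ± 0.035 in the mean (adjusted p = 9.02e-07). Its counterpart Slc12a5, the potassium-chloride cotransporter KCC2 that extrudes chloride from neurons, differed by 0.01 ± 0.027 (adjusted p = 0.829).

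Slc9a3, a sodium-proton exchanger best known from kidney and gut epithelium, had the smallest p for age among the members and the dimmest signal of the 3. Its signal passed the filter level on 26 of the 78 arrays, 1 of 29 young and 25 of 49 aged, and the mean of that level was 7.34. It thus met the filter through the aged arrays, where it is high, and its call is given as a description. Young rats lay between 6.47 and 7.37 (median 6.77) untrained, 6.31 and 7.26 (median 6.89) on day 5, and 6.42 and 7.06 (median 6.68) on day 21. Aged rats lay between 6.65 and 7.61 (median 7.28), 6.80 and 7.73 (median 7.37), and 6.81 and 7.73 (median 7.36). The young medians were thus below the filter level, and the aged medians close to it. Of 49 aged arrays 47 lay above the young mean of their cohort. The differences were 0.38 ± 0.118 untrained (limma, adjusted p = 0.136), 0.50 ± 0.102 on day 5 (adjusted p = 0.000715) and 0.58 ± 0.107 on day 21 (adjusted p = 0.000141). Their mean was 0.49 ± 0.063 (adjusted p = 6.51e-09), and 0.39 with a pseudocount of 32, so its size depends on dim signal.

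**Figure D1:**
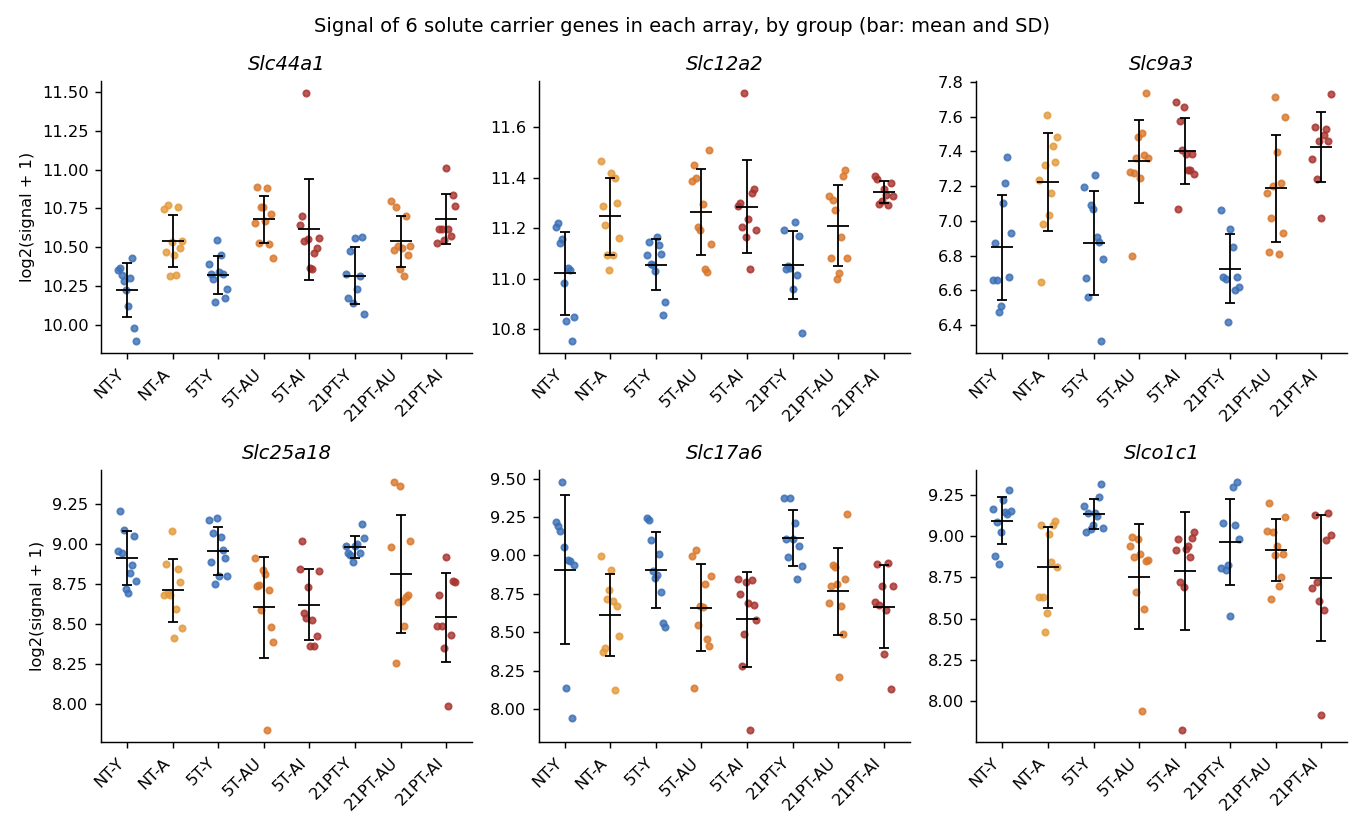
Log2(signal + 1) of 6 members on the vertical axes, for the 8 groups on the horizontal axes. Each point is 1 array (1 rat), blue for young and orange to red for aged rats, and bars give the mean and SD. Slc44a1, Slc12a2 and Slc9a3 sit higher and Slc25a18 and Slc17a6 lower in aged than in young rats of each cohort, with overlapping groups, while 5T-AI replicate 4 is the highest point for Slc44a1 at 11.49.

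Among transmitter carriers 2 of 9 members were called in the mean of the cohorts, both lower in aged rats (background 8.78% called, 3.47% lower). No class was tested as a set. Slc17a6, the vesicular glutamate transporter VGLUT2, had medians of 9.01, 8.89 and 9.11 in young rats (untrained, day 5 and day 21) and of 8.69, 8.67 and 8.80 in aged rats. The young ranges were 7.94 to 9.48, 8.53 to 9.24 and 8.85 to 9.38, and the aged ranges 8.12 to 8.99, 7.87 to 9.04 and 8.13 to 9.27, so that the groups overlapped throughout. Of 49 aged arrays 45 lay below the young mean of their cohort. Slc17a6 fell by 0.32 ± 0.070 in the mean of the cohorts (limma, adjusted p = 0.000618). In single cohorts it passed on day 21 (-0.40 ± 0.119, adjusted p = 0.049). Slc1a1, the neuronal glutamate and cysteine transporter EAAC1, fell by 0.09 ± 0.029 (adjusted p = 0.0346), with 37 of 49 aged arrays below the young mean. Its second probe set differed by -0.02 ± 0.032 (adjusted p = 0.721).

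The other transmitter carriers did not pass. Slc17a7, the vesicular transporter VGLUT1 of hippocampal principal cells, had medians between 12.44 and 12.54 in the 8 groups. Single arrays spread more widely, from 11.89 to 12.70 in 5T-AI. Slc17a7 differed by -0.03 ± 0.029 with age (limma, adjusted p = 0.613). The astrocytic glutamate transporters Slc1a3 (0.03 ± 0.025, adjusted p = 0.549) and Slc1a2 (0.04 ± 0.046, adjusted p = 0.687) did not pass either. Slc32a1, which loads GABA into vesicles, differed by -0.05 ± 0.056 (adjusted p = 0.64), and the glycine transporter Slc6a9 by 0.02 ± 0.049 (adjusted p = 0.837). Slc18a2 and Slc6a3, monoamine carriers, were above the filter level on 41 and 32 arrays and carry dim signal. The median age difference of the 9 was -0.03, against -0.01 over all tested probe sets.

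Of the 19 amino acid and peptide carriers 1 was called (background 8.78%). This was Slc3a2, the heavy chain that brings light-chain amino acid exchangers such as Slc7a5 to the surface. It rose by 0.08 ± 0.024 (limma, adjusted p = 0.0275), and 42 of 49 aged arrays lay above the young mean. The light chain Slc7a5 differed by -0.06 ± 0.055 (adjusted p = 0.559). Slc38a1 and Slc38a3, which supply glutamine to neurons and release it from astrocytes, differed by -0.06 ± 0.047 (adjusted p = 0.471) and 0.03 ± 0.062 (adjusted p = 0.832). No sugar or carboxylate carrier of 14 was called (background 8.78%). The neuronal glucose transporter Slc2a3 differed by -0.06 ± 0.045 (adjusted p = 0.489), and the lactate and pyruvate transporters Slc16a1 and Slc16a7 by -0.06 ± 0.037 (adjusted p = 0.366) and 0.04 ± 0.050 (adjusted p = 0.719).

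Among 23 carriers of inorganic ions and pH 3 were called (background 8.78%), Slc9a3 and Slc12a2 higher and Slc24a3 lower. Slc24a3 is a potassium-dependent sodium-calcium exchanger. On day 5 its young range was 11.06 to 11.25 (median 11.17) and its aged range 10.49 to 11.18 (median 10.94), with 15 of 20 aged arrays below the lowest young one. The day 5 difference was -0.22 ± 0.060 (limma, adjusted p = 0.021), against -0.04 ± 0.069 in untrained rats (adjusted p = 0.959). The difference between these age effects was not called for any member. In the mean of the cohorts Slc24a3 fell by 0.14 ± 0.037 (adjusted p = 0.00614), and its dimmer probe set differed by -0.03 ± 0.079 (adjusted p = 0.891). The sodium-calcium exchangers Slc8a1, Slc8a2 and Slc8a3 and the bicarbonate transporters Slc4a4 and Slc4a10 had differences between -0.08 and 0.03, none of which passed.

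Of 18 metal carriers 1 was called (background 8.78%). Slc39a10, a zinc importer, fell by 0.13 ± 0.041 (limma, adjusted p = 0.0284), with 38 of 49 aged arrays below the young mean. Slc30a3, which fills glutamatergic vesicles with zinc, differed by -0.01 ± 0.028 (adjusted p = 0.868), the zinc exporter Slc30a1 by 0.20 ± 0.094 (adjusted p = 0.196), and the iron exporter Slc40a1 by -0.13 ± 0.134 (adjusted p = 0.626). Slc30a1 and Slc40a1 were dim, above the filter level on 25 and 11 arrays. Slc40a1 had the largest within-group spread of all members, an SD of 0.58, with 21PT-AI replicate 5 at 3.35.

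Mitochondrial carriers were the largest class, with 27 members, and 2 were called (background 8.78%), in opposite directions. Slc25a18, a mitochondrial glutamate carrier of astrocytes, had medians of 8.90, 8.94 and 8.98 in young rats (untrained, day 5 and day 21) and of 8.69, 8.65 and 8.67 in aged rats. On day 5 the young lay between 8.75 and 9.16 and the aged between 7.84 and 9.02, with 14 of 20 aged arrays below every young one. It fell by 0.34 ± 0.091 on day 5 (limma, adjusted p = 0.0189) and by 0.28 ± 0.056 in the mean of the cohorts (adjusted p = 0.00014), and 44 of 49 aged arrays lay below the young mean. Slc25a13, the aspartate-glutamate carrier citrin, rose by 0.34 ± 0.069 (adjusted p = 0.000192), with 45 of 49 aged arrays above the young mean, and passed in no single cohort. It was above the filter level on 1 of 29 young and 18 of 49 aged arrays, so it too was a member through the aged arrays, where it is high. It was dim: the young medians were 6.94, 7.06 and 6.93, under the mean filter level of 7.34, and the aged medians 7.32, 7.28 and 7.23. With a pseudocount of 32 its difference was 0.28. The related Slc25a12, the neuronal form, differed by -0.05 ± 0.032 (adjusted p = 0.419), and the adenine nucleotide translocases Slc25a4 and Slc25a5 by 0.02 ± 0.025 (adjusted p = 0.693) and -0.02 ± 0.024 (adjusted p = 0.737).

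Of 21 carriers of nucleosides, nucleotide sugars and vitamins 3 were called (background 8.78%): Slc44a1, Slc29a3 and Slc35b1. Slc29a3, a lysosomal nucleoside transporter, rose by 0.22 ± 0.069 (limma, adjusted p = 0.03), and its second probe set by 0.23 ± 0.062 (adjusted p = 0.00789). Slc35b1, a nucleotide carrier of the endoplasmic reticulum, fell by 0.11 ± 0.029 (adjusted p = 0.00507), while its dimmer probe set differed by 0.03 ± 0.064 (adjusted p = 0.811). Of 20 carriers of organic ions, lipids and other solutes 2 were called (background 8.78%). Slco1c1, the thyroxine transporter of brain capillaries and astrocytes, fell by 0.26 ± 0.061 (adjusted p = 0.00209), and on day 5 all 20 aged arrays (7.83 to 9.02, median 8.88) lay below all 10 young ones (9.03 to 9.31, median 9.13). In that cohort the difference was -0.36 ± 0.099 (adjusted p = 0.0265), and on day 21, where 11 of 19 aged arrays lay below the young mean, -0.13 ± 0.104 (adjusted p = 0.549). Slco2b1, another organic anion transporter, rose by 0.21 ± 0.058 (adjusted p = 0.00846), and its dimmer probe set by 0.13 ± 0.075 did not pass (adjusted p = 0.293).

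**Figure D2:**
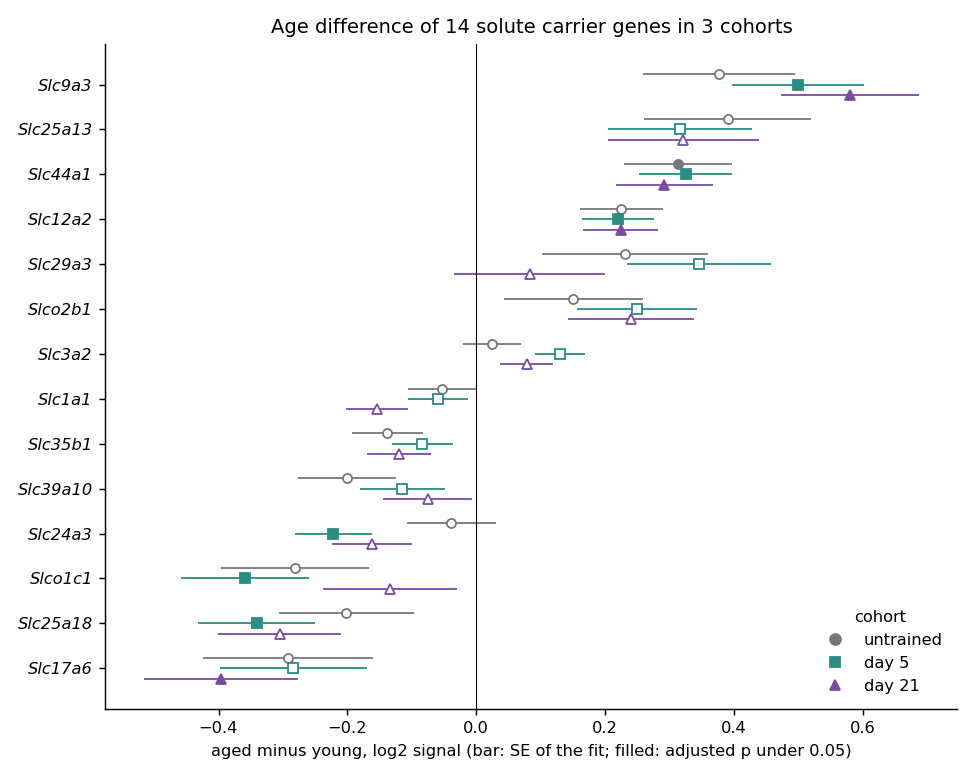
Aged minus young difference in log2 signal on the horizontal axis for the 14 members called in the mean of the 3 cohorts, 1 row per gene, with the SE of the fit as bars and filled symbols for an adjusted p under 0.05. Grey circles are untrained rats, squares day 5 and triangles day 21. In this fit, which has no term for fluidics module, Slc44a1 is filled in all 3 cohorts, Slc9a3 and Slc12a2 in both trained cohorts.

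Across classes the medians of the age difference lay between -0.04 for amino acid and peptide carriers and 0.00 for the organic ion class, apart from the pair of non-transporters at -0.08. Of the 29 dimmer kept probe sets of members, 20 had the sign of the brightest probe set in the mean of the cohorts, and 3 passed the threshold.

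**Figure D3:**
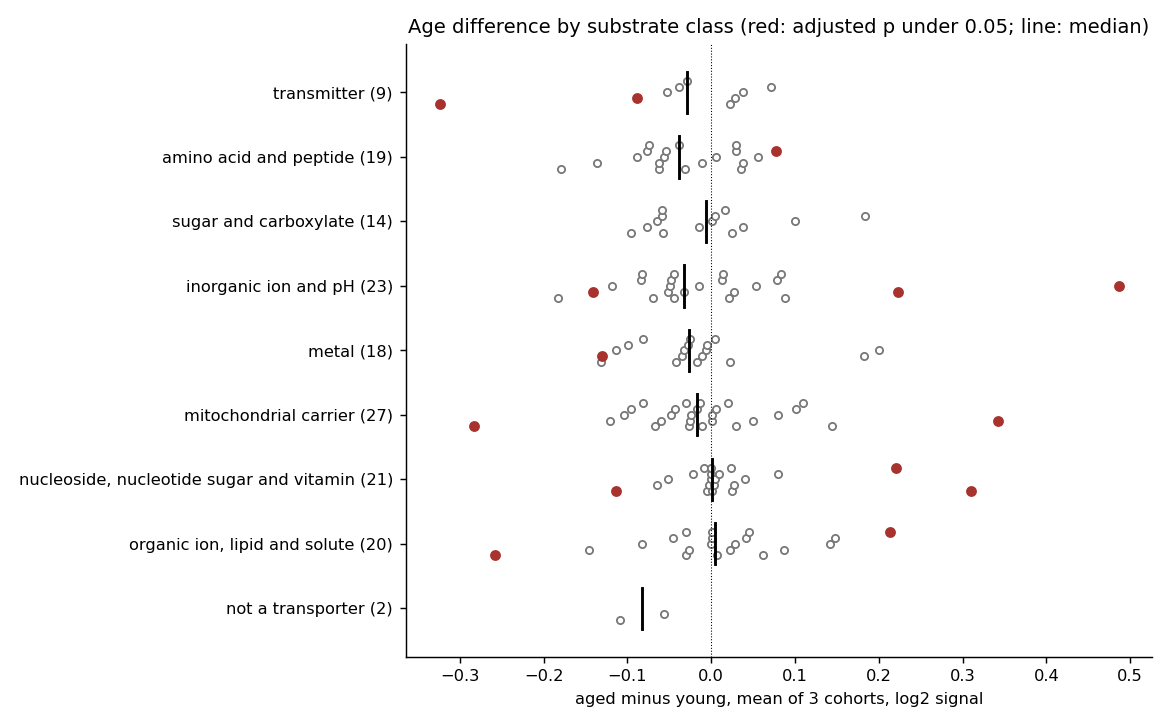
Aged minus young difference in log2 signal, mean of 3 cohorts, on the horizontal axis for each of the 153 members, by substrate class with the number of members in brackets. Red points have an adjusted p under 0.05, and vertical lines are class medians. Slc9a3 is the point farthest to the right at 0.49 and Slc17a6 the one farthest to the left at -0.32.

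Markers of other cells moved with age beside these carriers. Of 13 measured microglia markers 11 were higher in aged rats in the mean of the cohorts, and the marker level ran from 8.42 to 8.80 in young and from 8.88 to 10.91 in aged arrays, without overlap. Of 14 oligodendrocyte and myelin markers 4 were higher, with group means of 10.61 to 10.67 in young and 10.71 to 10.82 in aged rats. Of 13 astrocyte markers 6 were higher, of 9 endothelial markers none, and both red blood cell markers were higher. Of 12 excitatory neuron markers 2 were lower. Markers counted as measured when they passed the filter used for the members.

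With the myelin level as a covariate, Slc44a1 differed with age by 0.23 (limma, adjusted p = 9.27e-06) and Slc12a2 by 0.16 (adjusted p = 6.45e-05). Slc9a3 differed by 0.47 (adjusted p = 1.31e-07) and Slc17a6 by -0.33 (adjusted p = 0.00157). With the microglia level as a covariate the differences of Slc44a1 and Slc12a2 were 0.08 (adjusted p = 0.361) and 0.13 (adjusted p = 0.083). Slc9a3 (a member through the aged arrays), Slc17a6 and Slc25a18 still passed with this covariate, at 0.46 (adjusted p = 0.00013), -0.32 (adjusted p = 0.0339) and -0.25 (adjusted p = 0.0329). That covariate leans on 5T-AI replicate 4. Without this array and with the microglia level, none of the 14 passed, and Slc9a3 differed by 0.29 (adjusted p = 0.311). Since the microglia level separated young from aged arrays completely, age and that level cannot be told apart for these carriers. Without the array and with no covariate, all 14 passed.

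Within groups, several carriers followed the myelin marker level from array to array. With the 8 group means in the fit, 12 of 153 members had a slope past the threshold, 9 positive and 3 negative (background 6.25%), and without 5T-AI replicate 4 the count was 6 (background 3.1%), all of them among the 12. The slopes were 0.69 ± 0.104 log2 units for each log2 unit of marker level for Slc12a2 (limma, adjusted p = 1.45e-06) and 0.85 ± 0.137 for Slc44a1 (adjusted p = 6.28e-06), and 0.61 and 0.66 without that array. Slc16a1, which exports lactate from oligodendrocytes among other cells, had a slope of 0.58 ± 0.121 (adjusted p = 0.000528), Slco3a1, an organic anion transporter, 0.47 ± 0.109 (adjusted p = 0.00238), and Slc48a1, a heme transporter, 0.52 ± 0.132 (adjusted p = 0.00667). Slc2a3, the neuronal glucose transporter, had a negative slope of -0.61 ± 0.154 (adjusted p = 0.00664). The share of members called was near the background, so these are values of single genes. How much of the myelin level reflects where the tissue was divided was not tested.

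**Figure D4:**
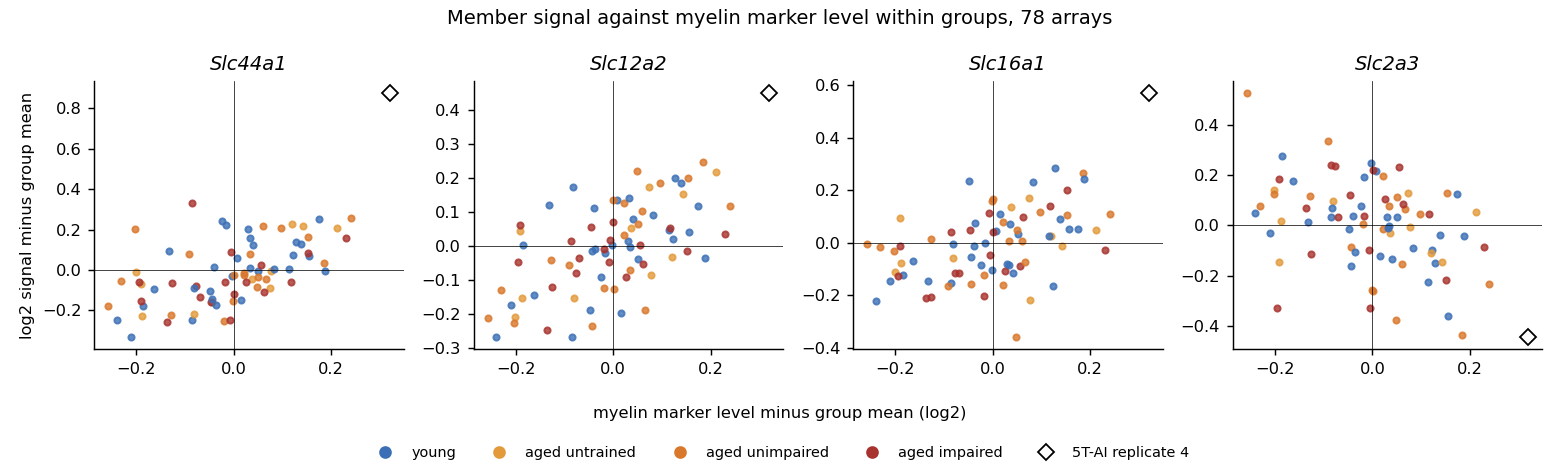
Log2 signal minus its group mean on the vertical axes against the mean level of 14 myelin markers minus its group mean on the horizontal axes, for 4 members, with 1 point per array (78 arrays). Points rise to the right for Slc44a1, Slc12a2 and Slc16a1 and fall for Slc2a3. The open diamond is 5T-AI replicate 4, at the end of each cloud.

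Slopes on other cell marker levels were also fitted with and without 5T-AI replicate 4. On the endothelial marker level 18 members passed (background 6.85%), and without 5T-AI replicate 4 only Slco1a4 (background 0.376%), an organic anion transporter of brain capillaries, with slopes of 0.83 ± 0.126 and 0.87 ± 0.144 (limma, adjusted p = 6.92e-05 without the array). On the microglia level 48 passed (background 25%) and 20 without that array (background 7.37%), with 9 in common. On the astrocyte level 9 passed (background 12.3%) and 17 without it (background 16.4%), the 9 among them. On the choroid plexus level 3 passed (background 1.91%), Slc39a10, Slc6a15 and Slc7a1, all negative, and 2 of them without it (background 2.02%).

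Impaired and unimpaired aged rats were compared to ask which genes follow maze performance at equal age. On each day most arrays of these groups were run on different fluidics modules. No member was called on day 5 or on day 21 (background 0% in both, since no probe set passed). At an unadjusted p under 0.05 there were 6 members on day 5 (3.92%, background 4.58%) and 8 on day 21 (5.23%, background 4.6%). The smallest p on day 5 was that of the mitochondrial carrier Slc25a34, at 0.31 ± 0.095 (limma, adjusted p = 0.985). Slc25a34 was dim, above the filter level on 4 of 29 young and 17 of 49 aged arrays. It was followed by Slc7a10, an exchanger of small neutral amino acids, at -0.21 ± 0.082 and Slc6a20a, a proline transporter, at 0.35 ± 0.159 (adjusted p = 0.985 for each). Slc6a20a had 1 high array, 5T-AI replicate 4 at 9.52 against a group median of 7.55, and differed by 0.15 without it and by 0.02 with its probe sets averaged. On day 21 it was that of Slc7a8, a neutral amino acid exchanger, at -0.39 ± 0.133 (adjusted p = 0.985), and then those of Slc25a18 (-0.27 ± 0.108) and the glutamine and alanine importer Slc38a2 (0.23 ± 0.092), with the same adjusted p. The impaired minus unimpaired estimates of the 153 members ran from -0.26 to 0.35 on day 5 and from -0.41 to 0.34 on day 21. The difference between the day 21 and day 5 effects was called for no member either (background 0%), and 3 had an unadjusted p under 0.05 (background 3.35%).

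Training was compared with the home cage separately in young and aged rats. In young rats the home-cage group shared no fluidics module with either trained group, so training and module cannot be told apart there. On day 5 no member was called in young rats (background 0.0675%) or aged rats (background 0.154%), and at an unadjusted p under 0.05 there were 4 and 16 members (background 3.16% and 9.16%). In aged rats the smallest p were those of Slc25a33, a mitochondrial carrier of pyrimidine nucleotides, at 0.18 ± 0.049 (limma, adjusted p = 0.118), Slc38a2 at 0.26 ± 0.078 (adjusted p = 0.195), and Slc38a1 at 0.21 ± 0.076 (adjusted p = 0.348). On day 21 no member was called in either age (background 0%), and 3 and 6 had an unadjusted p under 0.05 (background 2.44% and 5.54%). The age difference did not change with training in a way that passed for any member on day 5 or day 21 (background 0%), with 6 at an unadjusted p under 0.05 in each (background 3.72% and 3.88%).

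Across all 8 groups the F test called 9 members (5.88%, background 4.11%). These were 6 of the carriers described for age (Slc9a3, Slc44a1, Slc12a2, Slc25a13, Slc25a18 and Slc17a6) and Slc25a33, Slc38a2 and Slco3a1. The count includes Slc9a3 and Slc25a13, which met the filter through the aged arrays, and their calls are given as a description. Slc25a33 (F test, adjusted p = 0.00151) had group medians of 8.79 in NT-Y, 8.92 in 5T-Y and 8.71 in 21PT-Y, and of 8.69 in NT-A, 8.83 in 5T-AU, 8.77 in 5T-AI, 8.76 in 21PT-AU and 8.69 in 21PT-AI. Slc38a2 (adjusted p = 0.0252) had medians of 9.47, 9.68 and 9.32 in young rats in the same order, and of 9.38 in NT-A, 9.63 in 5T-AU, 9.61 in 5T-AI, 9.41 in 21PT-AU and 9.75 in 21PT-AI. Among young rats both medians were highest on day 5, and the highest Slc38a2 median was that of impaired rats on day 21, where single arrays ran from 9.15 to 9.99. Slco3a1 (adjusted p = 0.0365) had its highest medians in the impaired groups, 9.46 in 5T-AI and 9.44 in 21PT-AI, against 9.39 in 5T-AU and 9.25 in 21PT-AU. The impaired minus unimpaired differences of 0.08 ± 0.060 and 0.15 ± 0.062 did not pass (limma, adjusted p = 0.985 for each).

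Genes that power or serve these carriers were counted from a list of 30, of which 25 were measured. In the mean of the cohorts 3 were higher (background 5.31%) and 1 lower (background 3.47%) with age. These are values of single genes. Wnk1, a kinase that controls Slc12a2 and Slc12a5, rose by 0.13 ± 0.028 (limma, adjusted p = 0.00078) and on day 5 by 0.17 ± 0.046 (adjusted p = 0.0242). Atp1b3, a subunit of the Na,K-ATPase, rose by 0.12 ± 0.036 (adjusted p = 0.0289), and Glul, which turns glutamate into glutamine in astrocytes, by 0.09 ± 0.031 (adjusted p = 0.0433). Gad1, which makes GABA, fell by 0.10 ± 0.035 (adjusted p = 0.0427). No gene of the list was called for impairment or training (background at most 0.154%).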

How the data were processed

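Members and gene lists were chosen with earlier results of these data known. The authors deposited 1 table of linear signal intensity, for which the submitters' processing notes name MAS5 and GCOS 1.1. Per the file headers, the deposited array records (used as text, of no numerical unit) gave chip lot, fluidics module and scan day. No further normalization was applied. Of 15923 probe sets 57 controls were left out. Of the others 12783 had 1 gene symbol, 312 several and 2771 none in the platform annotation, and genes were named only where there was 1. Probe sets above the 40th percentile of their array (141.8 to 177.2 intensity units) in at least 9 arrays were tested. The median signal per array was 229.2 to 269.05. Precision is limited by how many arrays there are.

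The limma package 3.58.1 (R 4.3.3) was run on log2(signal + 1) with lmFit and a trended eBayes over 8 group means, with 13 contrasts, an F test and slopes on 5 marker levels, of which the microglia, astrocyte and endothelial slopes were added after the data were seen. The fit was tested on simulated data. Named members were those past the threshold in a comparison (or the 3 of smallest p), a list of 46 carriers of transmitter, energy or ion supply (38 of them members), the 5 with the largest within-group SD and the 2 with the smallest F test p in each class. Of these, 87 genes in all, not every one is described. Alternatives were a block for replicate number or scan day, a term for fluidics module or animal code letter, a covariate for the actin 3' to 5' ratio, quantile normalization, a larger pseudocount (32), all probe sets without the filter, only the arrays compared, omission of 5T-AI replicate 4 and averaged probe sets per gene. Marker levels as covariates were added later. Promoter sequences and their coordinates are RefSeq's on GRCr8, and all 3 genes matched by symbol. Summaries and plots used pandas 2.3.3, numpy 2.4.6 and matplotlib 3.10.9 in Python 3.11.15.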

Additional observations from a re-analysis of the deposited data

Results flagged for a closer look

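Single arrays far from the rest of their group were looked for in 29 members by Dixon's test. It was run on 232 pairs of a member and a group of 9 or 10 arrays, and chance passes it in about 1 of 20 pairs. There were 28 such values, each of 1 member on 1 array. Of these values 10 came from a single array, 5T-AI replicate 4, whose microglia and fibroblast markers stood apart. In log2 signal, that array was highest of its group for Slc12a2 (11.733), Slc44a1 (11.491), Slc25a13 (8.866), Slc29a3 (9.334), Slco2b1 (9.964) and Slc2a5 (9.807), a fructose transporter. It was lowest for Slc17a7 (11.893), Slc1a1 (9.94), Slc24a3 (10.493) and Slco1c1 (7.828). Without it the age values of these genes in the mean of the 3 cohorts were 0.21 for Slc12a2, 0.29 for Slc44a1, 0.32 for Slc25a13, 0.19 for Slc29a3 and 0.19 for Slco2b1, and -0.08 for Slc1a1, -0.13 for Slc24a3 and -0.24 for Slco1c1.

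The remaining values came from other arrays. Slco1c1 was low in 5T-AU replicate 7 (7.944) and 21PT-AI replicate 5 (7.915). The first of these arrays was also the lowest of its group for Slc25a18 (7.839) and Slc38a2 (9.114), and the second for the iron exporter Slc40a1 (3.35). Slc40a1 was low in NT-A replicate 3 too (5.758). In 21PT-AU replicate 3 both Slc17a7 (12.21) and Slc1a2 (7.806) were lowest of their group, and in 21PT-AU replicate 10 Slc29a3 (6.714). Slc37a1, a sugar phosphate carrier, was low in NT-Y replicate 10 (5.888), 5T-AU replicate 9 (5.658) and 5T-AI replicate 3 (5.963). Slc17a7 was low in 5T-Y replicate 3 (12.287), Slc1a1 in 21PT-Y replicate 5 (10.53), Slc25a33 in 21PT-AI replicate 4 (8.262), Slc6a3 in NT-Y replicate 7 (6.426) and Slc9a3 in 5T-AU replicate 2 (6.8). Slc32a1 was high in NT-A replicate 1 (9.655). The differences between age effects and between impairment effects passed for no member.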

How the results depend on the processing

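Of 1228 values of single members under the alternatives not added later, 1087 kept their direction and side of the threshold, 134 fell below it, and 7 changed sign. Of 202 counts of called members, 173 stayed within 1.5 times the reported one. Every member comparison of impairment, training and their interactions kept a count of 0 under each alternative run. The 1 call in untrained rats was 0 under quantile normalization, without the filter, with averaged probe sets, and with fluidics module, actin ratio, myelin, astrocyte, or microglia without 5T-AI replicate 4 in the fit. It was 2 with scan day, with the code letter and with only the arrays compared, and 3 without 5T-AI replicate 4. The 6 calls on day 5 were 0 with fluidics module and 2 with the code letter. The 4 calls on day 21 were 8 without 5T-AI replicate 4, 1 with the myelin, astrocyte or endothelial level and 9 with the microglia level. The 14 calls in the mean of the cohorts, and the 9 of the F test, were 9 and 5 with the astrocyte level and 9 and 3 with the microglia level without that array, and those 9 were other members than the 14. The cause of these shifts was not tested.

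Slope counts without 5T-AI replicate 4 were 6 for myelin, 20 for microglia, 17 for astrocyte and 1 for endothelial markers. With scan day they were 21 for myelin, 4 for astrocyte, 11 for endothelial and 0 for choroid plexus markers. Choroid plexus calls were also 0 under quantile normalization, the code letter and the actin ratio and 1 with fluidics module, and endothelial calls were 9 under quantile normalization. Microglia slopes that changed sign without that array became 0.33 for Slc12a5, 0.11 for Slc17a7, 0.054 for Slc1a1, 0.13 for Slc30a3, 0.061 for Slc4a3, -0.24 for Slc25a13 and -0.20 for Slc39a1. With the microglia level, age values that changed sign were 0.049 for Slc1a1, -0.091 for Slc29a3, 0.025 for Slco1c1 and -0.11 for Slco2b1, and without that array as well 0.15 for Slc39a10, 0.24 (0.15 on day 5) for Slco1c1 and -0.026 for Slco2b1.

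No label says that a replicate number marks a shared litter, batch or day. Over 267 pairs of arrays with the same number the correlation of deviations from the group means ran from -0.25 to 0.48 with a median of 0.15, against a median of -0.023 for other numbers, and 29 of 78 arrays correlated best with their own number, a hint from the data of shared structure. With replicate number as a block, calls were 2 in untrained rats, 7 on day 21, 0 for the choroid plexus slope and 4 for the astrocyte slope, and 17 in the mean of the cohorts. Signal near or below the filter level limits Slc9a3, Slc25a13, Slc25a34, Slc30a1 and Slc40a1, among others.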
